A study of Homo sapiens with 3 samples.

Results

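The matrix metalloproteinases, their tissue inhibitors and the ADAM and ADAMTS proteases were described in MDA-MB-231 cells. Members were all genes with a probe set of exactly 1 symbol that began with MMP and a number, or that was TIMP, ADAM or ADAMTS followed by a number. The rule gave 66 of 19775 named genes and 151 of 41097 probe sets with 1 symbol. They were 22 MMP genes, 4 TIMP genes, 20 ADAM genes, 18 ADAMTS genes and the MMP-named transcripts MMP24OS and MMP25-AS1.

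MDA-MB-231 is an established human breast cancer line of basal type, commonly classed as estrogen receptor negative, and came from the DSMZ collection. The series title names early effects of tamoxifen on expression. All 3 groups were held for 4 h in RPMI medium with 10% charcoal-stripped serum, which is low in steroids, and were then treated for 3 h. The vehicle group received 0.1% ethanol, the estradiol group 1 µM estradiol (the main natural estrogen) and the tamoxifen group 1 µM tamoxifen (an antiestrogen). Total RNA of each group was hybridised to 1 Affymetrix array, so no value has a replicate error and no difference could be tested. In such bulk RNA, fewer cells of a kind and less RNA per cell cannot be told apart. Differences of at least 1.5-fold (0.585 on the log2 scale) are counted as a rule of size.

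MMPs are zinc-dependent enzymes that cleave collagens, laminins and other matrix proteins, and most are secreted as inactive proforms. TIMPs bind their active sites and block them, and TIMP3 also blocks several ADAMs and ADAMTSs. ADAMs are membrane-bound sheddases that release growth factors and receptors from the cell surface, and ADAMTSs are secreted proteases of procollagens and proteoglycans. MDA-MB-231 is widely used as an invasive line in work on matrix degradation.

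Promoter sequence from RefSeq (GRCh38.p14) was found for 38 member genes (39 promoters). The 250 bases before the start were searched on both strands for the AP-1 letters TGANTCA. With any middle base allowed, these are a looser form of the classical AP-1 element of MMP promoters. They occurred in 4 of the 39 member promoters (10.3%) and in 2308 of 35116 promoters overall (6.57%). The matches are shown because 3 of the 4 genes (MMP10, MMP20 and MMP7) lie in the chromosome 11 cluster that also holds MMP1 and MMP3. MMP1, MMP3, ADAMTS9 and ADAMTS15 had no promoter sequence here and were not searched. Capitals mark the letters, and each sequence runs along the strand of its gene.
MMP7, chr11:102530796-102530826, minus strand: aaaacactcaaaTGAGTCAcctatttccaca
MMP10, chr11:102780677-102780707, minus strand: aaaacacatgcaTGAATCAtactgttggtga
MMP20, chr11:102625426-102625456, minus strand: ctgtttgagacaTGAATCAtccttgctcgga
ADAMTS12, chr5:33892056-33892086, minus strand: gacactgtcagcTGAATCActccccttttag
The first capital lies at -67 in MMP7, -67 in MMP10, -112 in MMP20 and -84 in ADAMTS12, counted from the start site. MMP7 carries TGAGTCA and the other 3 TGAATCA.

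The upstream 250 bases of MMP15 and ADAM20 are shown because, of the members above the floor, these differed most between the 2 ligands, in opposite directions. Capitals mark the ETS core GGAA or its complement TTCC, which occurred in 37 of 39 member promoters (94.9%) and in 92.7% of all promoters.
MMP15, chr16:58025504-58025753, plus strand: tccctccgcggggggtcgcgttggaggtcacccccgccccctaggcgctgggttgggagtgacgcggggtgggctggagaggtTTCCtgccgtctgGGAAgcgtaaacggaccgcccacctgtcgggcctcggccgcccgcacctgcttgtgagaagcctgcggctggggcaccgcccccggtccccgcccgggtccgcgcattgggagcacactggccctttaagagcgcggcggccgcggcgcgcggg
ADAM20, chr14:70535005-70535254, minus strand: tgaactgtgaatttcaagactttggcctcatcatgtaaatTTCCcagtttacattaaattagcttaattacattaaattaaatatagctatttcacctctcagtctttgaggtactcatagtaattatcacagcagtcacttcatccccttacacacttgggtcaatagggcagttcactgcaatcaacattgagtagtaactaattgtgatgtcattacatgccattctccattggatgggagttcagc
The MMP15 window held 2 ETS cores, 31 CpG dinucleotides and 74.8% G and C. The ADAM20 window held 1 ETS core, 0 CpG dinucleotides and 36.4% G and C. A match describes these letters and is not evidence of binding.

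The deposited values are centred per probe set on an unstated baseline, so they give no level. A brightness band was therefore inferred from how finely each number was stored in binary. Storage steps grow coarser as the stored log2 level rises, which separates levels of 8 and above, 4 to 8, 2 to 4 and below 2. For the vehicle column a finer step was allowed, as for a mean of more than 1 value. That the vehicle column is such a mean is an assumption. Genes with a probe set in the 4 to 8 band or brighter are called above the floor. Being above it does not show that a gene is expressed in these cells, and some markers of other cell types were above it. The bands are an inference from number storage, do not compare RNA amounts between genes, and can place a probe set 1 band too bright.

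Of the 66 members, 32 were above the floor (48.5%), against 12067 of 19775 named genes (61%). The share was 8 of 22 for MMPs (36.4%), 9 of 20 for ADAMs (45%), 11 of 18 for ADAMTSs (61.1%) and 3 of 4 for TIMPs (75%). The brightest band held 12 members: MMP1, MMP14, MMP15, MMP19, TIMP1, TIMP2, TIMP3, ADAM9, ADAM10, ADAM17, ADAM20 and ADAMTS16. Below the floor were both gelatinases (MMP2 and MMP9), the collagenases MMP8 and MMP13, all 3 matrilysin and elastase genes (MMP7, MMP26 and MMP12) and all 3 procollagen N-proteinases (ADAMTS2, ADAMTS3 and ADAMTS14).

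**Figure D1:**
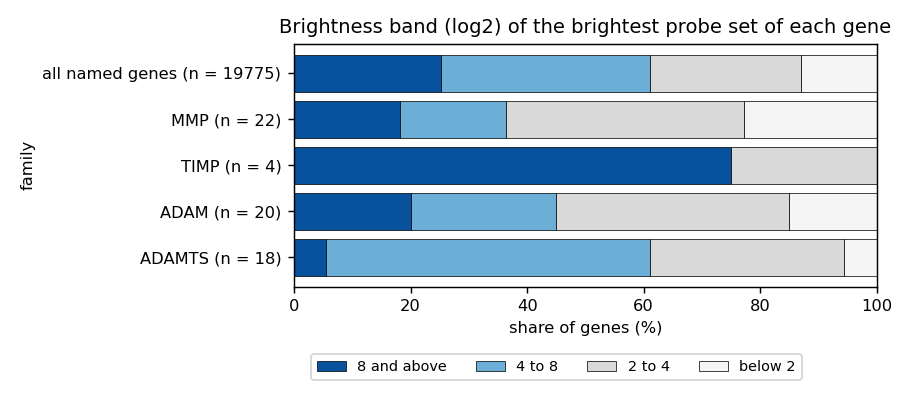
Share of genes (%, x axis) in each brightness band for all named genes and for the MMP, TIMP, ADAM and ADAMTS families (y axis). The TIMP bar is dark for 3 of 4 genes, and 8 of 22 MMP genes lie in the upper bands.

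All 11 named markers of the line's basal type, among them VIM, CD44 and CAV1, were in the brightest band. Above the floor were 5 of 10 luminal markers (ESR1, GATA3, KRT19, XBP1 and SPDEF), 2 of 7 leukocyte, 2 of 8 fibroblast and 3 of 6 endothelial markers. Across all probe sets the vehicle column had an SD of 0.20, against 0.47 for estradiol and 0.46 for tamoxifen. The counts, and the differences from vehicle of the genes described in most detail, are therefore also given with the vehicle value doubled, where the unstated baseline need not cancel. The 27 probe sets for poly-A control RNAs, added during labelling, had median log2 differences of 0.99 for estradiol and 0.84 for tamoxifen against vehicle. The 5′ probe set of ACTB differed by -1.08 between tamoxifen and vehicle and its 3′ probe set by -0.18. For GAPDH these differences were smaller, -0.26 and -0.10. The part of these shifts in the members' values was not tested.

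Few members passed 1.5-fold, and 1 member is 3.12% of the 32. Against vehicle, estradiol was higher for 2 of the 32 members (ADAMTS15 and MMP15), where 5.83% of all genes above the floor were, and lower for 1 (MMP1), where 2.65% were. Tamoxifen was higher than vehicle for 3 members (ADAM20, ADAMTS9 and ADAMTS15; 6.97% of all genes) and lower for 0 (4.33%). Tamoxifen exceeded estradiol for 1 member (ADAM20; 1.57%) and was below it for 1 (MMP15; 2.2%).

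With the vehicle doubled, estradiol was higher for ADAMTS9 and MMP15 (2 members; 4.39% of all genes) and lower for 0 members (1.92%). Tamoxifen was then higher for 5 members (7.14%), namely ADAM8, ADAM19, ADAM20, ADAMTS1 and ADAMTS9, and lower for 1, ADAMTS12 (3.64%). MMP15 with estradiol, and ADAM20 and ADAMTS9 with tamoxifen, passed with the vehicle as deposited and doubled. Their vehicle values were -0.14, 0.00 and -0.23. Doubling a value of 0 or below cannot lower a difference from vehicle, so for these genes it was no check. Other choices of probe set changed the genes called. Without probe sets of the types _s_at, _x_at and _a_at, which can be shared between transcripts, MMP15 had no value above the floor. ADAMTS15 and ADAMTS17 were then the members higher with estradiol, and ADAMTS17 the 1 member below estradiol with tamoxifen. With the mean over all probe sets and the vehicle as deposited, ADAM10 was the 1 member higher with estradiol. ADAM10 and ADAMTS15 were then those higher with tamoxifen. The median over the 32 members was 0.12 for estradiol and 0.13 for tamoxifen against vehicle as deposited, beside 0.02 and 0.02 over all genes. The comparisons with vehicle share the vehicle array.

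**Figure D2:**
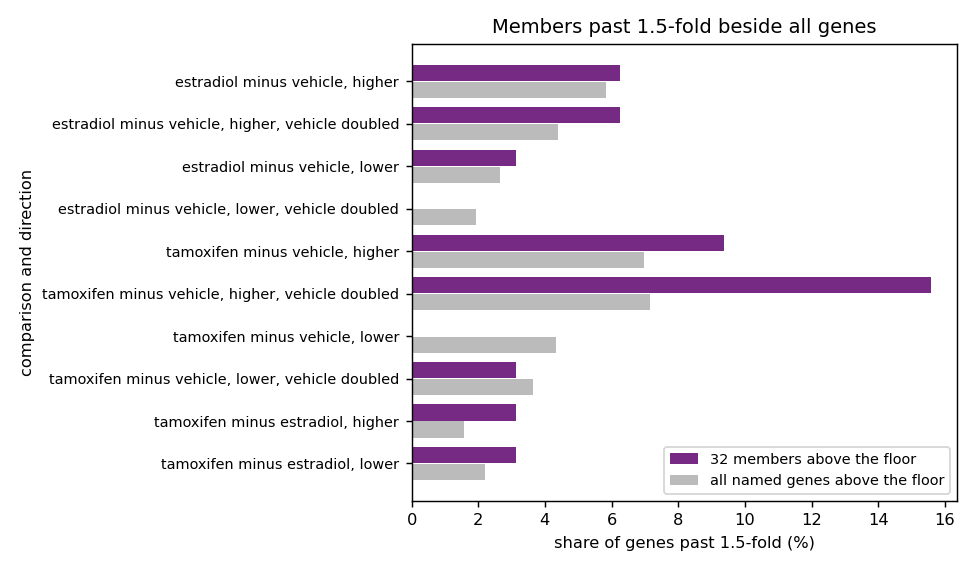
Share of genes past 1.5-fold (%, x axis) for each comparison and direction (y axis), in the 32 members above the floor (purple) and in all 12067 named genes above it (grey). One member is 3.12%, and the widest gap is for tamoxifen minus vehicle, higher, with the vehicle doubled (15.6% against 7.14%).

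Among the collagenases, which cut fibrillar collagen, MMP1 was above the floor. Its deposited values were -0.32 in vehicle, -0.99 with estradiol and -0.76 with tamoxifen. Both ligand columns were thus below vehicle. The difference from vehicle was -0.68 with estradiol (1.60-fold lower) and -0.45 with tamoxifen, and with the vehicle doubled it was -0.36 and -0.13. MMP13, a collagenase of cartilage and bone, was below the floor, with -0.24, -0.15 and 0.01 in vehicle, estradiol and tamoxifen.

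Of the stromelysins, which cleave proteoglycans and laminin and activate proMMPs, MMP3 had values of -0.12 in vehicle, -0.46 with estradiol and -0.14 with tamoxifen. The estradiol column stood below the other two, with -0.34 for estradiol minus vehicle (-0.22 with the vehicle doubled) and 0.33 for tamoxifen minus estradiol. MMP11, stromelysin 3, differed by at most 0.10 in size between any columns. MMP10, stromelysin 2, was below the floor, with -0.07, 0.26 and 0.43. The gelatinases, which cleave basement membrane collagen, were also below it. MMP2 had values of -0.05, -0.02 and -0.10 in vehicle, estradiol and tamoxifen, and MMP9 had -0.12, -0.32 and -0.41.

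The membrane-type MMPs MMP14 and MMP15 act at the cell surface, and MMP14 activates proMMP2. MMP14 had values of -0.16 in vehicle, 0.18 with estradiol and 0.06 with tamoxifen, and differed from vehicle by 0.34 and 0.22. All 4 of its probe sets were positive in both comparisons (0.34 to 0.62 with estradiol and 0.19 to 0.55 with tamoxifen), and with the vehicle doubled the gene differed by 0.50 and 0.38.

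MMP15 had values of -0.14 in vehicle, 0.46 with estradiol and -0.40 with tamoxifen, so vehicle lay between the ligands. It was 1.51-fold higher with estradiol than vehicle (0.59) and 1.81-fold lower with tamoxifen than estradiol (-0.86). Against vehicle, tamoxifen differed by -0.26. The differences were 0.73 for estradiol and -0.13 for tamoxifen with the vehicle doubled. The mean with its second probe set, which is below the floor, was 0.39 for estradiol minus vehicle and -0.39 for tamoxifen minus estradiol. Neither passed 1.5-fold. That second probe set had 0.19 for estradiol and 0.26 for tamoxifen against vehicle. Between ligands it had 0.07, so both of its tamoxifen differences were opposite in sign. The estradiol difference was 0.56 after centring within bands. The other MMPs above the floor, MMP19, MMP27 and MMP28, ranged from -0.27 to 0.07 with estradiol, from 0.00 to 0.19 with tamoxifen and from 0.11 to 0.40 between ligands.

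**Figure D3:**
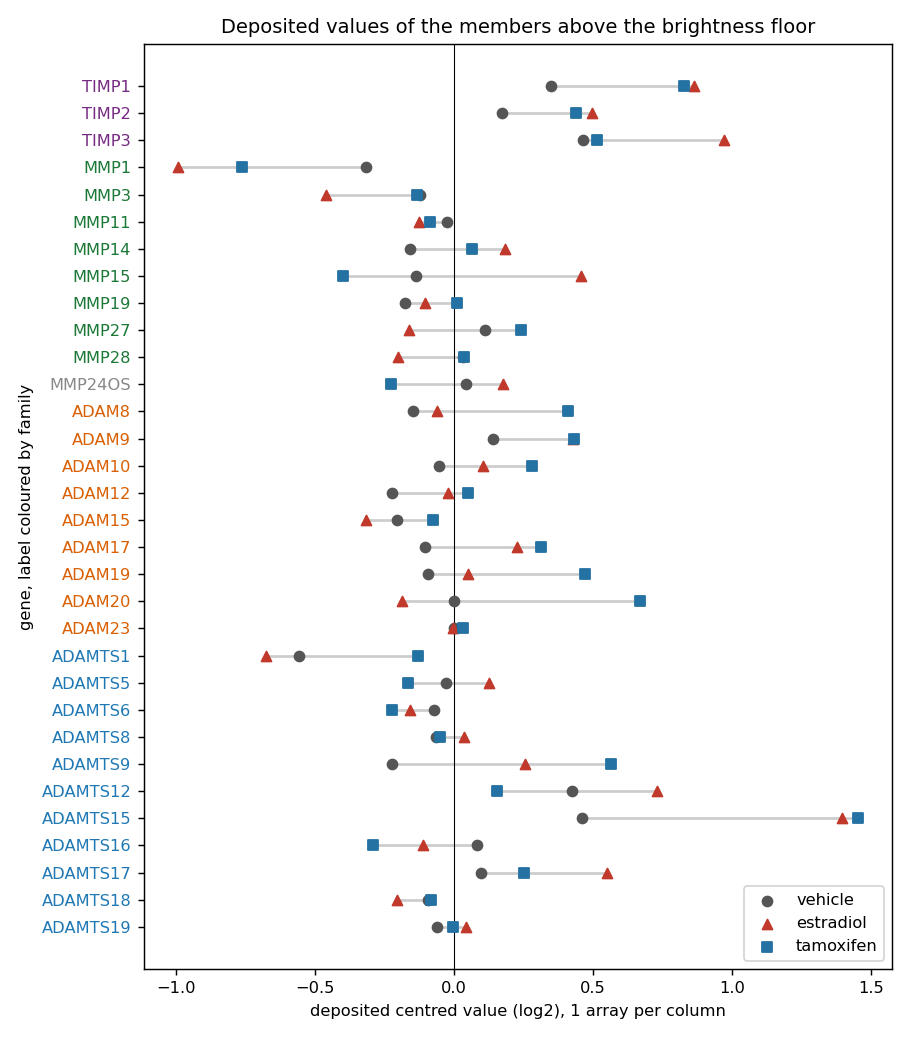
Deposited centred values (log2, x axis) of the 32 members above the floor (y axis, coloured by family), with vehicle as circles, estradiol as triangles and tamoxifen as squares, 1 array each. The ligand symbols lie left of vehicle for MMP1, right of it for ADAMTS15, and on opposite sides for MMP15.

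The inhibitors TIMP1, TIMP2 and TIMP3 each had their lowest value in the vehicle column when averaged over their brightest probe sets. TIMP1, a secreted inhibitor of most MMPs, had 0.35 in vehicle, 0.86 with estradiol and 0.83 with tamoxifen, differences of 0.51 and 0.48 from vehicle. TIMP2, which also takes part in proMMP2 activation at MMP14, had 0.17, 0.49 and 0.44, differences of 0.32 and 0.26. Its remaining probe set, in the 4 to 8 band, went the other way with -0.19 and -0.40, and the mean of all 3 was 0.15 and 0.04. TIMP3, which is bound to the matrix, had 0.46, 0.97 and 0.51, differences of 0.51 and 0.05. With all its probe sets the tamoxifen difference of TIMP3 was -0.03, below vehicle. These 3 genes did not pass 1.5-fold as averaged here, but the median over the brightest probe sets of TIMP3 did for estradiol (0.66). The estradiol median over all 4 probe sets of TIMP3 was 0.42 and did not pass.

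With the vehicle doubled the differences shrank to 0.17 and 0.13 for TIMP1 and to 0.15 and 0.09 for TIMP2. TIMP3 then differed by 0.04 with estradiol and by -0.41 with tamoxifen, a change of sign for tamoxifen. Between ligands, the gene mean of TIMP3 was lower with tamoxifen (-0.45), and its 4 probe sets gave -0.59, -0.45, -0.56 and -0.22. That comparison does not use the vehicle array. Against vehicle the same probe sets ran from -0.10 to 0.97 with estradiol and from -0.66 to 0.44 with tamoxifen. TIMP4 was below the floor, with 0.84, 1.19 and -0.04, the lowest being tamoxifen (-0.88 from vehicle and -1.23 from estradiol).

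**Figure D4:**
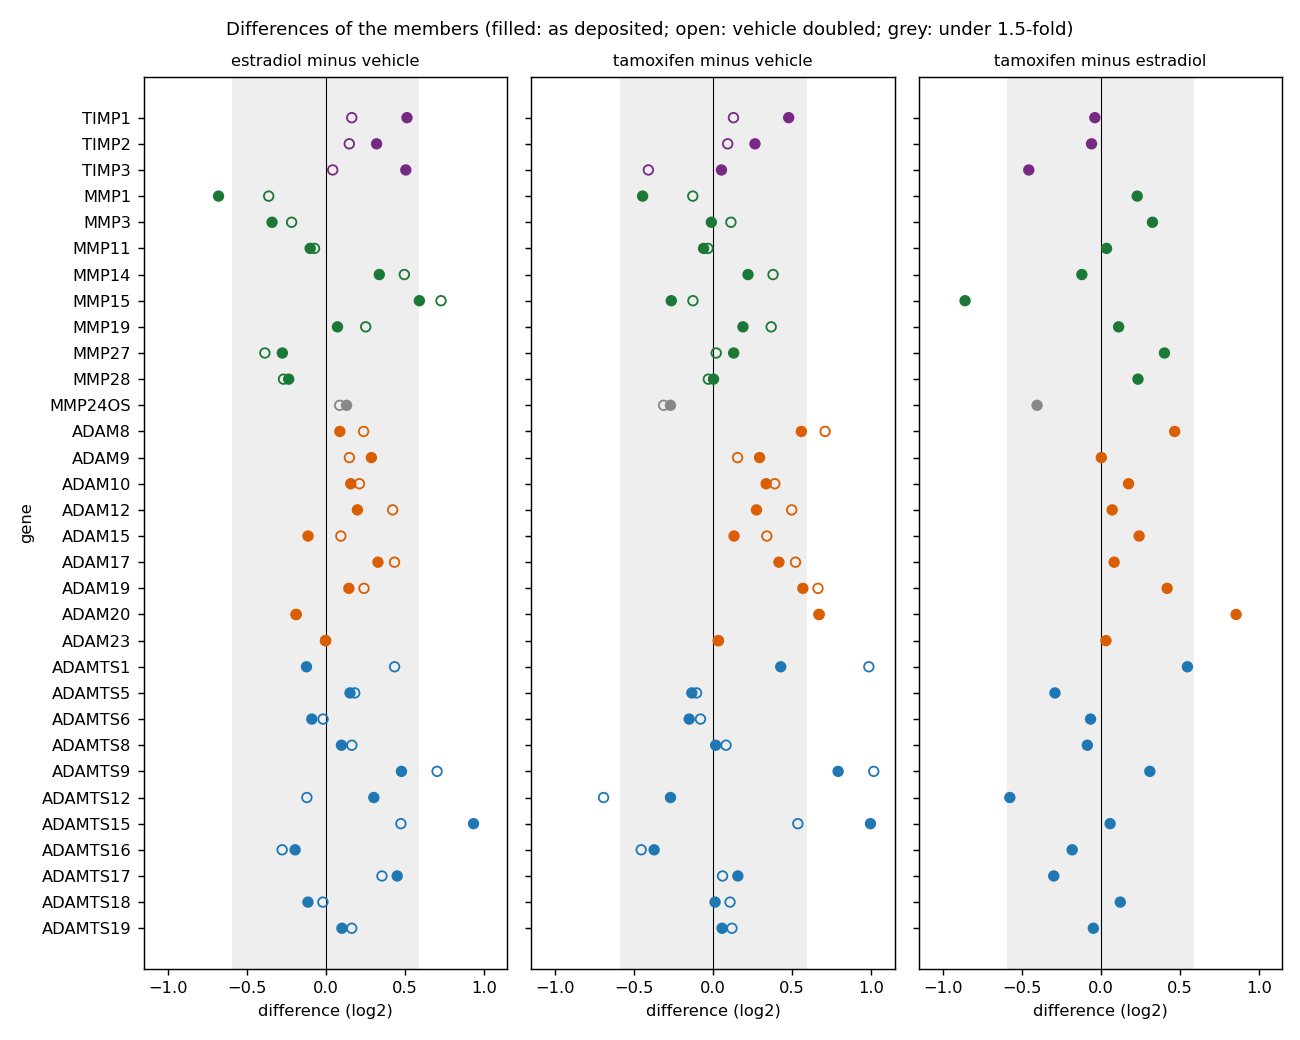
Log2 differences (x axis) of the 32 members above the floor (y axis) in the 3 comparisons, filled as deposited and open with the vehicle doubled, with the range under 1.5-fold in grey. The 9 ADAM genes, each averaged over its brightest probe sets, lie right of 0 in the tamoxifen panels, and MMP15 and ADAM20 lie outside the grey on opposite sides between ligands.

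With each gene averaged over its brightest probe sets, all 9 ADAM genes above the floor had positive differences for tamoxifen against vehicle (median 0.34) and against estradiol (median 0.18). With the mean over all their probe sets 6 of 9 were positive in each comparison. Negative then were ADAM12 (-0.07), ADAM17 (-0.08) and ADAM23 (-0.09) against vehicle, and ADAM12 (-0.42), ADAM17 (-0.24) and ADAM9 (-0.11) against estradiol. Over all genes 6291 of 12067 were positive in the former and 5643 in the latter. The differences from vehicle ran from 0.03 (ADAM23) to 0.67 (ADAM20). With the vehicle doubled and the brightest probe sets, all 9 were positive against vehicle, with a median of 0.50. Only ADAM9 had a vehicle value above 0 (0.14), so doubling could not lower the differences of the other ADAM genes. Against vehicle, estradiol was positive for 6 of 9 (median 0.15). The comparisons share arrays, and no test of the family was possible.

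ADAM10, the main sheddase of Notch receptors and cadherins, had -0.05 in vehicle, 0.10 with estradiol and 0.28 with tamoxifen in its brightest probe set. Its differences from vehicle were 0.16 and 0.34. A second probe set, in the 4 to 8 band, had 0.83, 2.32 and 2.08, differences of 1.48 and 1.25. As deposited, the probe sets of ADAM10 thus disagreed in size. The mean of all 3 passed 1.5-fold as deposited (0.70 with estradiol and 0.77 with tamoxifen). With the vehicle doubled the 3 probe sets gave 0.39, 0.35 and 0.41 for tamoxifen, all under 1.5-fold. For estradiol they then gave 0.21, 0.06 and 0.65.

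ADAM17, which releases TNF and EGF receptor ligands, had -0.10, 0.23 and 0.31 in its brightest probe set, differences of 0.33 and 0.42. Its other probe sets, in the 4 to 8 band, had -0.32 and -0.33 for tamoxifen against vehicle, opposite in sign. ADAM9, which can shed HB-EGF, had 0.14, 0.43 and 0.43, and its pair of probe sets gave -0.05 and 0.64 for tamoxifen against vehicle. Both probe sets of that pair are in the brightest band, so this disagreement lies within it.

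ADAM20, known for expression in testis, had 0.00 in vehicle, -0.19 with estradiol and 0.67 with tamoxifen, the tamoxifen column alone being high. It was 1.59-fold above vehicle and 1.81-fold above estradiol (0.86). The vehicle value is exactly 0.00, so it carries no binary step and the brightness band of this probe set rests on the other columns. The mean with its second probe set, below the floor, was 0.51 against vehicle. ADAM8, a leukocyte and tumour sheddase, had -0.15, -0.06 and 0.41, and ADAM19 had -0.10, 0.05 and 0.47. Both were high with tamoxifen, by 0.56 and 0.57 from vehicle and by 0.47 and 0.42 from estradiol, and passed 1.5-fold with the vehicle doubled (0.71 and 0.66). The mean with the second ADAM19 probe set, below the floor, was -0.46 for estradiol and 0.27 for tamoxifen against vehicle.

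The ADAMTS proteoglycanases, which cleave aggrecan and versican, held both ADAMTS genes past 1.5-fold as deposited. In its brighter probe set ADAMTS15 had 0.46 in vehicle, 1.39 with estradiol and 1.45 with tamoxifen, both ligands far above vehicle and close to each other. It was 1.91-fold and 1.99-fold higher (0.935 and 0.995), and 0.48 and 0.54 with the vehicle doubled. The second ADAMTS15 probe set, below the floor, was opposite in sign for estradiol, with -0.28 against vehicle. It had 0.24 for tamoxifen against vehicle and 0.52 between ligands. The mean of both probe sets was 0.33 for estradiol, and for tamoxifen it still passed 1.5-fold.

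ADAMTS9 had -0.23, 0.25 and 0.57, differences of 0.48 and 0.79 from vehicle (0.70 and 1.02 with the vehicle doubled). Its brighter probe sets disagreed for estradiol, with 1.11 in one and -0.15 in the other, while both were positive for tamoxifen (1.17 and 0.41 in the same order). The mean of all 4 probe sets was 0.04 for estradiol and 0.41 for tamoxifen. ADAMTS1, which also inhibits angiogenesis, had -0.56, -0.68 and -0.13, with tamoxifen highest. It was higher with tamoxifen by 0.43 than vehicle and by 0.55 than estradiol, and by 0.98 than vehicle doubled. The second ADAMTS1 probe set, below the floor, differed from vehicle by 0.41 with estradiol and 0.16 with tamoxifen. Between ligands that probe set gave -0.25, opposite in sign.

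ADAMTS12 had 0.42 in vehicle, 0.73 with estradiol and 0.15 with tamoxifen, so vehicle lay between the ligands. Tamoxifen minus estradiol was -0.57, just short of 1.5-fold, and tamoxifen minus vehicle was -0.27, or -0.69 with the vehicle doubled. Estradiol minus vehicle was 0.30 and changed sign with the vehicle doubled (-0.12). The second ADAMTS12 probe set, below the floor, went the other way for tamoxifen, with 0.37 against vehicle and 0.24 against estradiol. ADAMTS16 had 0.08, -0.11 and -0.29, falling short of 1.5-fold in every comparison. ADAMTS17 had 0.10, 0.55 and 0.25, and its pair of probe sets gave 0.32 and -0.91 between ligands. The remaining ADAMTS genes above the floor, ADAMTS5, ADAMTS6, ADAMTS8, ADAMTS18 and ADAMTS19, had gene differences of at most 0.29 in size. Averaging hid disagreement in ADAMTS6, whose 3 probe sets ran from -0.62 to 0.32 for tamoxifen against vehicle. In that comparison the ADAMTS8 probe sets above the floor gave -0.28 and 0.31.

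MMP24OS, named for its place opposite MMP24, had 0.04 in vehicle, 0.18 with estradiol and -0.23 with tamoxifen. All 4 of its probe sets were lower with tamoxifen than with estradiol (-0.55 to -0.23). MMP24 itself, a membrane-type MMP, and MMP25-AS1 were below the floor.

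At the level of single probe sets, 57 of the 151 were above the floor. Estradiol was higher than vehicle in 8 of the 57 (14%), beside 7.01% of all named probe sets above the floor, and lower in 1 (1.75% beside 4.61%). Of these 8, TIMP3 gave 2, and the others came from ADAM10, ADAMTS9, ADAMTS15, ADAMTS17, MMP14 and MMP15. Tamoxifen was higher than vehicle in 7 (12.3% beside 8.2%), of which ADAM10 gave 2, and lower in 2 (3.51% beside 5.95%). Tamoxifen was above estradiol in 2 (3.51% beside 2.34%) and below it in 4 (7.02% beside 2.7%). Probe sets of 1 gene are not independent. The 15 members with several probe sets above the floor had a median range between them of 0.41 with estradiol, 0.61 with tamoxifen and 0.37 between ligands, beside 0.35, 0.35 and 0.28 over 5367 genes. For tamoxifen the disagreement between a member's own probe sets was thus slightly above the size rule.

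**Figure D5:**
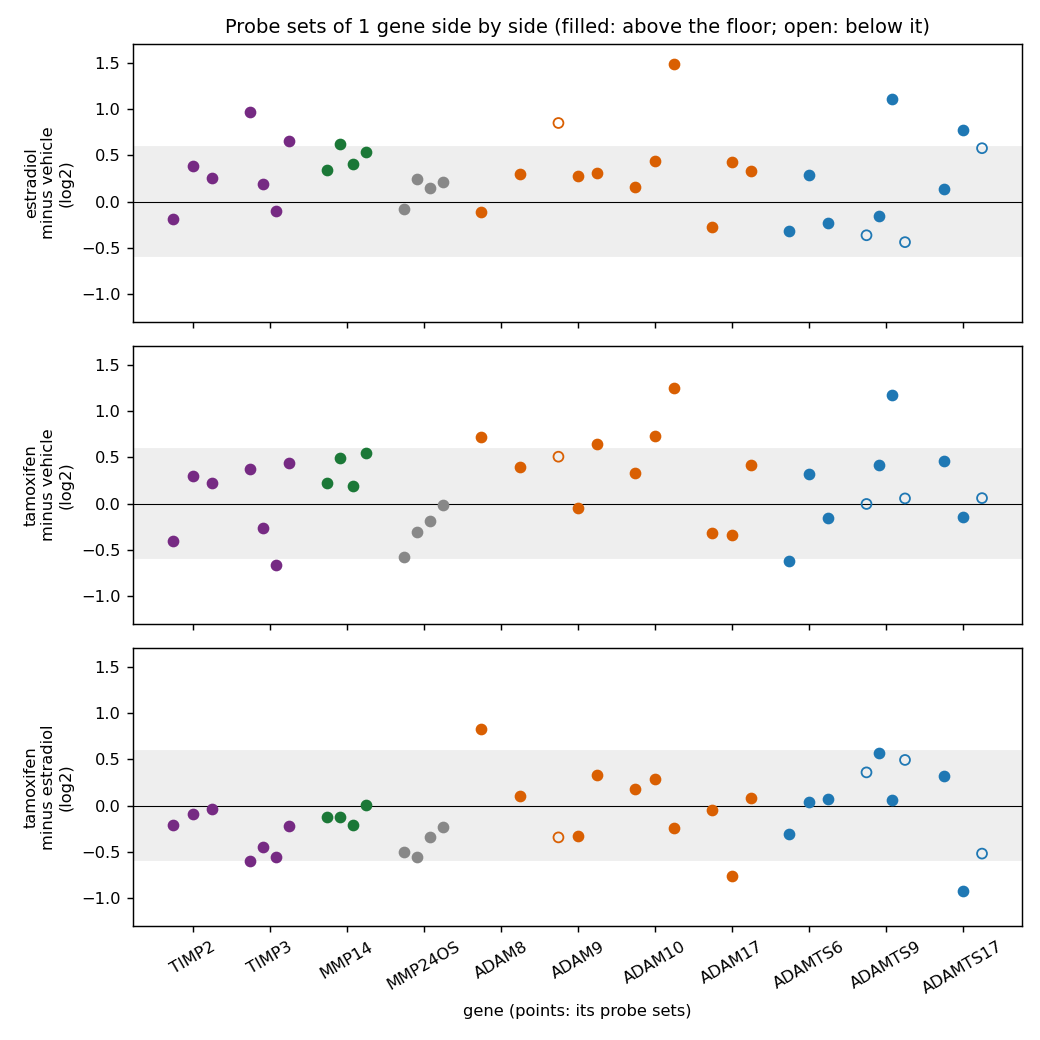
Log2 differences (y axes, 3 comparisons) of each probe set of 11 members (x axis), filled above the floor and open below it, with the range under 1.5-fold in grey. The MMP14 points lie above 0 against vehicle, those of TIMP3 and MMP24OS below 0 between ligands, and those of ADAM10, ADAM17 and ADAMTS9 are spread.

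Below the floor, 34 members were measured, of which ADAM2 (0.91 for estradiol against vehicle and -0.90 between ligands), TIMP4 and ADAMTS3 (0.75 between ligands) passed 1.5-fold. Members past it were 2.94%, 2.94% and 8.82% in the 3 comparisons, and all genes below the floor 5.81%, 5.44% and 7.43%.

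The genes around the proteases were described from lists of related genes. Counts past 1.5-fold in them stand beside shares over all genes above the floor of 5.83% higher and 2.65% lower with estradiol, and 6.97% higher and 4.33% lower with tamoxifen. These shares were 4.39%, 1.92%, 7.14% and 3.64% with the vehicle doubled. The lists are short, so 1 gene moves a share far. Of 11 activators and inhibitors outside the TIMPs, 8 were above the floor, with 1 higher and 0 lower with estradiol and 2 higher and 1 lower with tamoxifen. After doubling, 0 passed with estradiol, and 2 were higher and 0 lower with tamoxifen. TFPI2, a protease inhibitor of the matrix, differed from vehicle by 0.83 and 0.95, and by 0.32 and 0.44 with the vehicle doubled. A2M, a broad protease trap, was 0.64 above vehicle with tamoxifen (0.78 with the vehicle doubled) and 0.81 above estradiol. BSG, an inducer of MMPs, differed from vehicle by -0.46 and -0.59, and by -0.19 and -0.32 with the vehicle doubled.

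Of 9 maturation partners of ADAM10 and ADAM17, 8 were above the floor and 0 passed in any comparison; the largest was RHBDF2, the iRhom2 gene, at 0.49 with estradiol. Of 23 named shed substrates, 16 were above the floor, with 3 higher and 0 lower with estradiol and 2 higher and 1 lower with tamoxifen. After doubling, 2 were higher and 0 lower with estradiol, and 1 higher and 1 lower with tamoxifen. EREG, an EGF receptor ligand, was higher by 1.69 and 1.91, and TGFA, another, by 1.08 and 1.06. With the vehicle doubled EREG had 1.12 and 1.35, and TGFA had 0.03 and 0.02. ICAM1, an adhesion receptor, was higher by 1.34 with estradiol (0.73 with the vehicle doubled) and differed by -1.21 between tamoxifen and estradiol.

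Of the AP-1 and ETS factors, 12 of 14 were above the floor, with 3 higher with estradiol and 1 with tamoxifen, or 1 and 1 with the vehicle doubled, and 0 lower. FOS, an AP-1 subunit, was higher by 1.003 and 0.818, and by 0.92 and 0.74 with the vehicle doubled. ATF3, a stress-induced factor, and ELK1, an ETS factor, were higher with estradiol by 0.77 and 0.60, and by 0.48 and 0.49 with the vehicle doubled. Of 16 cathepsins 15 were above the floor, with 3 higher with estradiol, 2 higher with tamoxifen and 0 lower. After doubling, 3 were higher and 1 lower with estradiol, and 1 higher and 1 lower with tamoxifen. The lysosomal protease CTSL was higher by 0.81 and 0.60, and by 0.67 and 0.46 with the vehicle doubled. Of the plasminogen activator genes, 5 of 6 named were above the floor and 0 passed against vehicle. PLAT, a plasminogen activator, differed by -0.69 between tamoxifen and estradiol, and by -0.73 between tamoxifen and vehicle with the vehicle doubled.

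Of 20 named substrates of the collagenases and proteoglycanases, 12 were above the floor, with 1 higher with estradiol, 2 higher with tamoxifen and 0 lower, or 1, 1 and 0 with the vehicle doubled. COL4A5, a basement membrane collagen, was higher by 2.21 and 2.07 (0.88 and 0.73 with the vehicle doubled), and FN1, fibronectin, by 0.61 with tamoxifen (0.55 with the vehicle doubled). Of 7 ADAMTS-like and papilin genes 4 were above the floor and 0 passed against vehicle, but with the vehicle doubled ADAMTSL1 was higher with tamoxifen (0.70). ADAMTSL2 differed by -0.62 between tamoxifen and estradiol. Of 19 other surface and secreted proteases 3 were above it, and 0 passed 1.5-fold as deposited. BMP1, a procollagen C-proteinase, passed with estradiol once the vehicle was doubled (0.66).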

How the data were processed

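RNA of 3 cultures of MDA-MB-231 cells was measured on 1 array each. Robust multi-array averaging (RMA) is named in the submitters' processing notes, with its version not stated. The deposited log2 values of 54675 probe sets are centred on an unstated baseline; base 2 and the direction of the values are assumed. Probe sets were named from the platform table: 41097 had 1 symbol, 1801 had several and 11777 were not in it. Of probe sets with several symbols, 2 held a member and were left out. All 66 member symbols were found in the RefSeq gene table.

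Brightness bands replaced a floor on levels. A gene was given the average of those of its probe sets that lay in the brightest band it reached. Differences were taken between columns, and the calculation was tested on simulated data. The simulation also built the vehicle column as a mean of several arrays. It therefore checks the code and cannot show that the bands hold for these data. With 1 array per group no test, SD or p-value could be given, and the number of arrays limits the precision. Members, lists and rules were chosen with earlier results of these data known. Members past 1.5-fold and 11 set genes (TIMP1 to TIMP3, MMP1, MMP2, MMP3, MMP9, MMP13, MMP14, ADAM10 and ADAM17) get their values; other members are given by range, or where their probe sets disagree; up to 4 genes of each list are named. MMP10, MMP11, TIMP4, ADAM2, ADAM8, ADAM19, ADAMTS3, ADAMTS1, ADAMTS12, ADAMTS16 and MMP24OS were added after their values were seen, as were the AP-1 matches of members not past 1.5-fold. Alternatives were a doubled vehicle, other probe set choices, other floors and centring within bands. Python 3.11.15, pandas 2.3.3, numpy 2.4.6 and matplotlib 3.10.9 were used.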

Additional observations from a re-analysis of the deposited data

How the results depend on the processing

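Counts of members past 1.5-fold were small, so single genes move them. For estradiol above vehicle (2 as reported) the count was 1 with the mean over all probe sets, 1 with the floor at the brightest band and 1 after centring within bands. For estradiol below vehicle (1) it was 0 with the vehicle doubled. For tamoxifen above vehicle (3) it was 5 with the vehicle doubled and 1 at the brightest band. For tamoxifen below vehicle (0) it was 1 with the vehicle doubled and 1 with no floor. For tamoxifen above estradiol (1) it was 2 with all probe sets and 2 with no floor, and for tamoxifen below estradiol (1) it was 0 with all probe sets and 3 with no floor. Equal counts can hide different genes: without _s_at, _x_at and _a_at probe sets, tamoxifen below estradiol was again 1, with ADAMTS17 in place of MMP15. With all probe sets, ADAM10 and ADAMTS15 stood above vehicle with tamoxifen, without ADAM20 and ADAMTS9. The median over the probe sets in a gene's brightest band added TIMP3 (0.66) for estradiol. No alternative turned the sign of a member difference that had passed 1.5-fold; some smaller ones changed sign. Leaving out a replicate was not possible, since each group has 1 array. No paired analysis was possible because each group has 1 array and no result comes from a test. Signal over background cannot be read from centred values.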
